A study of Mus musculus with 13 samples.

Results

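Glucocorticoids act on fat through the glucocorticoid receptor, a steroid-bound transcription factor, and 9 genes tied to that pathway were described in perivascular adipose tissue, the fat around blood vessels. They were the receptor gene Nr3c1 and the response genes Fkbp5, Tsc22d3, Zbtb16, Klf9, Sgk1, Errfi1, Mt1 and Mt2. They are 9 of 34013 genes in the count table, and all 9 were among the 17270 genes that passed the filter on low counts. The members were picked by name, with their counts scaled to library size (CPM) in the 13 libraries already known. Their levels and fold changes are therefore given as a description, with no test between groups.

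The fat came from mice of C57BL/6 background that had been given splenocytes. Donors were Nlrp3 knockout mice with type 2 diabetes (NTS-R, 3 libraries), mice with type 2 diabetes alone (TS-R, 4 libraries), non-diabetic Nlrp3 knockout mice (NS-R, 3 libraries) or wild-type mice (WTS-R, 3 libraries). The product of Nlrp3 senses danger signals and builds an inflammasome, which releases interleukin-1 family cytokines. The genotype label names WT or Nlrp3 knockout without saying whether donor or recipient is meant. The sources used here give no age, sex, time of collection, steroid level, route of diabetes induction, preparation of the recipients or batch, and do not say that libraries came from separate animals. The spread between libraries may therefore be partly technical.

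In the resting cell the receptor is held in the cytoplasm by HSP90 and its co-chaperones. Bound hormone moves it to the nucleus, where it binds paired AGAACA and TGTTCT hexamers and switches on genes that feed back on the receptor, restrain inflammatory signalling and adjust lipid and glucose use. In fat the same hormone supports adipocyte differentiation, and several of these genes also follow the daily rhythm of the hormone. Of the members, FKBP5 is a co-chaperone that lowers the receptor's affinity for hormone, and TSC22D3 (GILZ) binds and restrains inflammatory transcription factors. ZBTB16 (PLZF) and KLF9 are zinc-finger transcription factors, SGK1 is a kinase of ion transport and survival signalling, ERRFI1 (MIG6) inhibits the EGF receptor, and MT1 and MT2 bind zinc and copper.

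RefSeq promoter windows of 300 bases (250 before and 50 after the annotated start, build GRCm38.p6) were found for 7 members, 15 windows in all, with none used for Nr3c1 or Zbtb16. The full response element, searched as AGAACA, any 3 letters and TGTTCT on both strands, was present in 3 of 32851 windows in the mouse table (0.00913%), and 1 of these was the fifth Sgk1 window. That window lies at chr10:21993640-21993939 on the plus strand and is shown because it alone among the members' windows held the element. Capitals mark each TGTTCT hexamer on either strand, and the element is the run of 15 letters that joins the second and the third. An E-box, CACGTG, the binding letters of clock and related factors, overlaps the first hexamer by 2 letters.
Sgk1: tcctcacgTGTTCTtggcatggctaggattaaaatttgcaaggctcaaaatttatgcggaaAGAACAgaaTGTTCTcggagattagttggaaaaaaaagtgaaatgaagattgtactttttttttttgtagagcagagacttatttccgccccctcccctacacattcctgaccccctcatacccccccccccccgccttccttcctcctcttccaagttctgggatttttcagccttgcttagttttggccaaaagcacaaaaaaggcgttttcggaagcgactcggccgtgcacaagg
The single hexamer TGTTCT, on either strand, was in 6233 windows (19.0%) and in 4 windows of 2 members, Tsc22d3 and Sgk1. The E-box was in 2349 windows (7.15%), among them the Fkbp5 window and this Sgk1 window. Both metallothionein windows are shown for the metal response element core, TGCACNC or TGCGCNC, the letters read by the zinc sensor MTF1, capitalised on either strand. Mt1 lies at chr8:94178839-94179138 and Mt2 at chr8:94172368-94172667, both on the plus strand.
Mt1: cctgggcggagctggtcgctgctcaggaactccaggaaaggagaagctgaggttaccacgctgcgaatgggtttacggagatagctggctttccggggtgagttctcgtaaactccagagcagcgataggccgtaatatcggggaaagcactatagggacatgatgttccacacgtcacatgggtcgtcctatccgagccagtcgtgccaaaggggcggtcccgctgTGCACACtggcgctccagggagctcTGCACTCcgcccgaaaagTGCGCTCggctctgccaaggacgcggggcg
Mt2: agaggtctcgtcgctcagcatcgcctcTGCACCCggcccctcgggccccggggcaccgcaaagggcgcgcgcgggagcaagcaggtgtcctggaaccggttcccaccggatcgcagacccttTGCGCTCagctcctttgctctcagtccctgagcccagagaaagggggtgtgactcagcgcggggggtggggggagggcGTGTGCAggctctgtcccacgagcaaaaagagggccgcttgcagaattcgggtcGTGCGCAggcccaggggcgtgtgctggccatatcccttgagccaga
The Mt1 window held 3 cores and the Mt2 window held 4. At least 1 core was in 8444 windows (25.7%), and 4 or more were in 170 (0.517%). The remaining member windows held none of the full response elements, and letters in a window do not show that a factor was bound.

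Library totals were 14216706 counts at the lowest (NTS-R replicate 3) and 37011122 at the highest (NS-R replicate 1), and 3 counts, the limit that a count of 0 allows, equalled 0.0811 to 0.211 CPM. Nlrp3, the gene named in the knockout label, was low in every library. It stood at 1.22, 0.483 and 0.352 CPM in NTS-R, 0.537, 1.35, 3.55 and 1.16 CPM in TS-R, 1.03, 0.456 and 1.36 CPM in NS-R, and 0.601, 0.226 and 0.693 CPM in WTS-R. These groups overlapped, and counts over the whole gene cannot show whether a deleted exon was absent. All 6 adipocyte markers were detected in every library, with summed levels of 11260 to 12600 CPM in NTS-R, 4057 to 14640 in TS-R, 8400 to 13150 in NS-R and 11490 to 14140 in WTS-R. Several libraries stood apart. TS-R replicate 3 had the lowest adipocyte sum together with lymph node stroma markers at 1601 CPM, against at most 46.5 CPM in every library outside TS-R. TS-R replicate 1 had skeletal muscle markers at 10900 CPM, against at most 1578 CPM in every other library. NS-R replicates 1 and 2 had airway markers at 2757 and 5705 CPM, against 0.177 CPM in NS-R replicate 3. Many, though not all, of the main values are also given without these 4 libraries. That leaves 2 TS-R libraries and 1 NS-R library, replicate 3, assumed to vary like the other groups. NS-R values without the 4 libraries thus rest on replicate 3 alone. The TS-R libraries that remain also held lymphoid transcripts. B cell markers summed to 396 CPM in TS-R replicate 2 and 147 CPM in replicate 4, against at most 38.1 CPM outside TS-R, and T cell markers to 278 and 76.2 CPM, against at most 23.0 CPM. Lymph node stroma markers in replicate 2 summed to 369 CPM. Xist, the RNA of the inactive X chromosome in female cells, stood at 805 CPM in TS-R replicate 3 and 459.5 CPM in NS-R replicate 3, against at most 0.352 CPM in the other 11 libraries. These libraries, unlike the rest, thus carried a female transcript, and its part in the member values was not tested. The NS-R library left without the 4 is among them. In such bulk tissue, fewer cells of a type and less RNA per cell cannot be told apart.

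CPM divides by the column total. The fitted fold changes use trimmed-mean (TMM) library sizes, whose factors were 0.873 to 1.004 in NTS-R, 1.05 to 1.21 in TS-R, 0.868 to 1.04 in NS-R and 0.899 to 0.981 in WTS-R. TS-R levels are therefore lower relative to the other groups on the TMM scale than in CPM, and both scales are given where they place the groups differently.

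**Figure D1:**
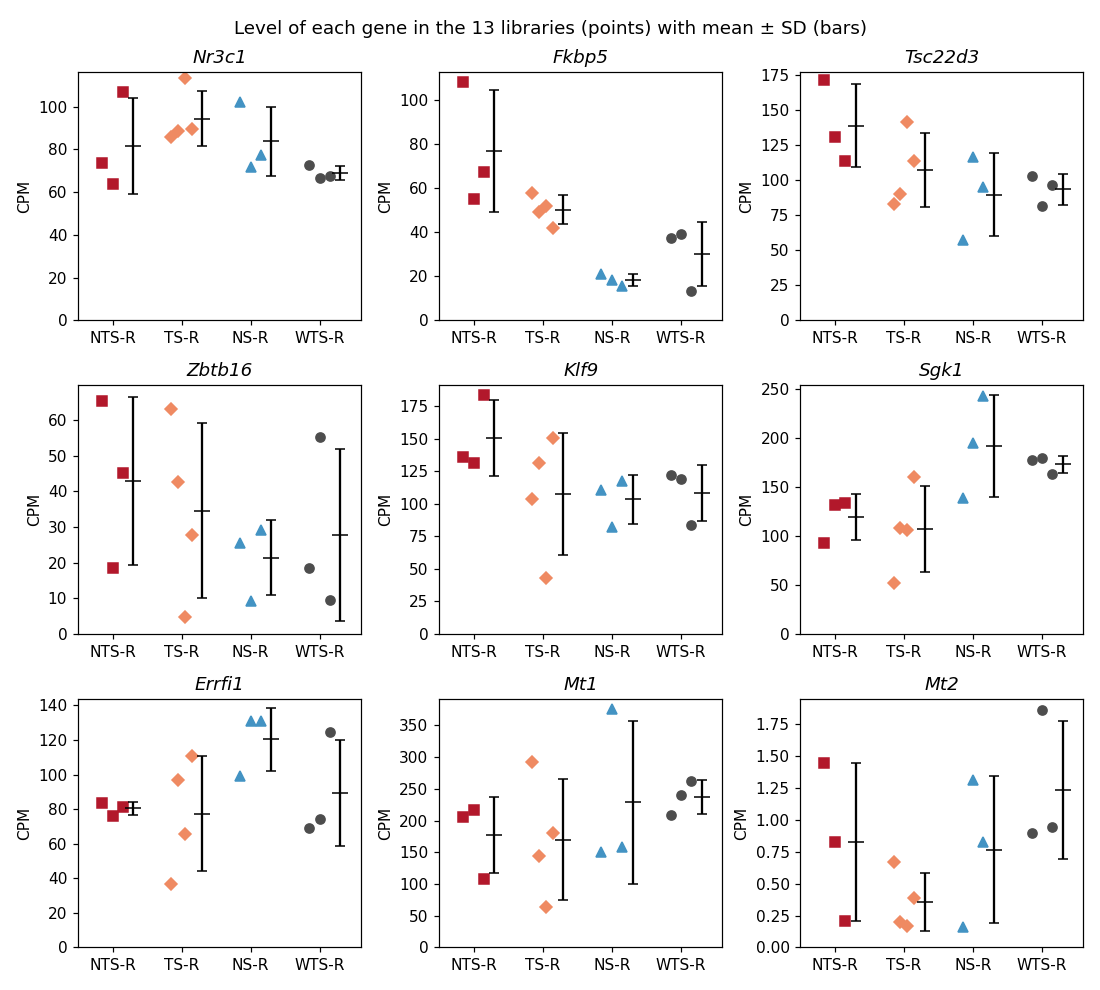
CPM of the 9 members in each of the 13 libraries, 1 panel a gene with its own linear axis; points are libraries, and bars show the mean and SD of NTS-R, TS-R, NS-R and WTS-R. Fkbp5 in NTS-R (55.2 to 108 CPM) lies above all 3 NS-R libraries (15.7 to 21.0 CPM), while most other panels show groups that overlap.

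Per kilobase of annotated exon, averaged over the 13 libraries, the levels ran from 161 CPM per kb for Mt1 to 1.30 for Mt2. Sgk1 (29.5), Errfi1 (25.3), Tsc22d3 (24.7) and Klf9 (24.2) lay close together, followed by Nr3c1 (10.8), Zbtb16 (6.04) and Fkbp5 (4.69). These lengths come from GENCODE vM21, which may not be the authors' annotation. The members also differed in how widely they varied. Between the highest and the lowest library, CPM differed 13.6-fold for Zbtb16, 11.5-fold for Mt2, 8.10-fold for Fkbp5 and 5.86-fold for Mt1, against 1.77-fold for Nr3c1, the receptor itself.

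Nr3c1 (chromosome 18, minus strand) was the steadiest member. It stood at 73.7, 64.0 and 107 CPM in NTS-R, 85.8, 88.8, 114 and 89.6 CPM in TS-R, 102, 71.8 and 77.4 CPM in NS-R, and 72.9, 66.8 and 67.8 CPM in WTS-R. All 4 TS-R libraries were above the WTS-R ones in CPM (94.5 ± 12.9, n = 4, against 69.2 ± 3.29, n = 3, mean ± SD), but on the TMM scale the groups overlapped, at 72.7 to 94.0 in TS-R and 69.2 to 77.9 in WTS-R. The fitted log2 fold change was 0.17 (SE 0.21) in TS-R against WTS-R, 0.10 (0.20) in NTS-R against TS-R, 0.24 (0.22) for NS-R set against WTS-R and 0.03 (0.22) for NTS-R set against NS-R. No pair of groups that follow each other in the order of Nr3c1 means in CPM, TS-R, NS-R, NTS-R and WTS-R, was separated. On the TMM scale the order was NTS-R (mean 88.9), NS-R (87.0), TS-R (82.9) and WTS-R (73.8).

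Fkbp5 (chr17:28399094-28517527, minus strand, GENCODE vM21 on GRCm38) showed the widest difference between groups among the members with more than a few counts. Its levels were 108, 55.2 and 67.5 CPM in NTS-R, 57.8, 49.4, 52.1 and 42.2 CPM in TS-R, 21.0, 18.4 and 15.7 CPM in NS-R, and 37.4, 39.3 and 13.4 CPM in WTS-R. Every library from a diabetic donor, NTS-R or TS-R, was thus above every library from a non-diabetic donor in CPM, and WTS-R replicate 3 held the lowest value of all 13. Group means were 77.0 ± 27.8, 50.4 ± 6.46, 18.3 ± 2.66 and 30.0 ± 14.5 CPM in NTS-R, TS-R, NS-R and WTS-R (SD). The fitted level in NTS-R was 4.32 times that in NS-R (log2 fold change 2.11, SE 0.35). This log2 fold change stayed between 1.87 and 2.29 when any 1 library was left out. It was 2.20 without the 4 libraries that stood apart, where NS-R replicate 3 stands alone.

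The difference between diabetic and wild-type donors was smaller for Fkbp5 and leaned on a single library. In TS-R against WTS-R the log2 fold change was 0.44 (SE 0.32), but 0.07 without WTS-R replicate 3. On the TMM scale the WTS-R range (13.6 to 43.8) reached into that of TS-R (40.1 to 48.9). Fkbp5 was higher in NTS-R than in TS-R by 0.90 (SE 0.31) on the log2 scale, overlapping in CPM and not on the TMM scale, where NTS-R began at 61.0. The NS-R against WTS-R value was -0.77 (SE 0.34), with WTS-R replicate 3 below the whole NS-R group. The interaction, which is NTS-R minus NS-R less TS-R minus WTS-R, was 1.67 (SE 0.46) and ranged from 1.40 to 2.05 with any 1 library left out. In the order NTS-R, TS-R, WTS-R and NS-R, the neighbours NTS-R and TS-R, and WTS-R and NS-R, overlapped in CPM, and TS-R and WTS-R overlapped on the TMM scale.

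Tsc22d3 (X chromosome) followed the same order of group means in CPM, within a narrower range. On the TMM scale NTS-R was still highest (mean 149), followed by WTS-R (99.8), NS-R (94.5) and TS-R (94.1). NTS-R libraries held 172, 131 and 114 CPM, TS-R libraries 82.8, 90.5, 142 and 114 CPM, NS-R libraries 57.6, 116 and 95.2 CPM, and WTS-R libraries 103, 81.7 and 96.3 CPM. NTS-R stood highest, overlapping TS-R and NS-R in CPM, while on the TMM scale all 3 NTS-R libraries were above all TS-R and all NS-R libraries. The log2 fold change was 0.66 (SE 0.26) in NTS-R against TS-R and 0.66 (SE 0.28) in NTS-R against NS-R, and -0.08 in both TS-R (SE 0.26) and NS-R (SE 0.28) against WTS-R. Without the 4 libraries that stood apart, these values were 0.69, 0.45, -0.10 and 0.13 in that order. The means of TS-R (107 ± 26.5 CPM), NS-R (89.7 ± 29.8) and WTS-R (93.7 ± 10.95) differed by less than 1 SD of TS-R or NS-R.

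**Figure D2:**
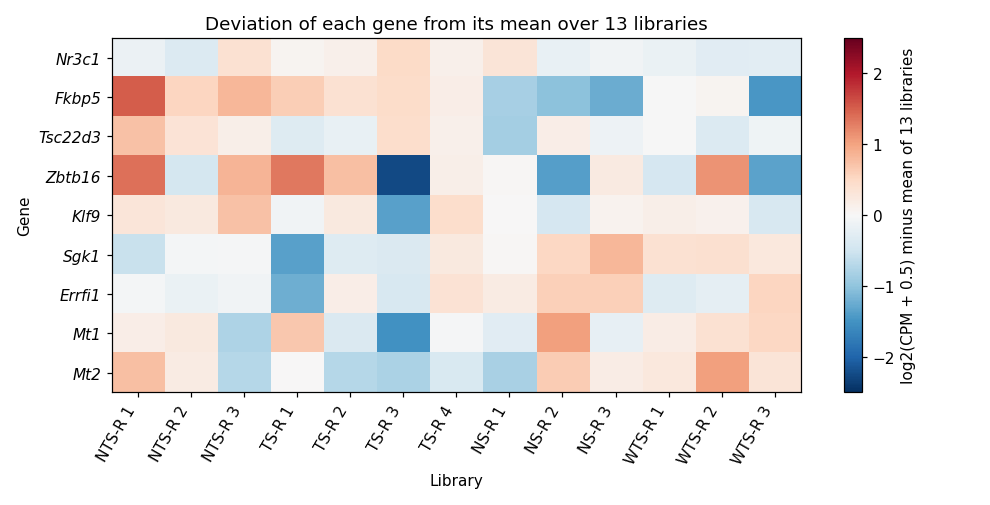
Deviation of log2(CPM + 0.5) from the mean of the 13 libraries, 1 row a member and 1 column a library, with columns ordered NTS-R, TS-R, NS-R and WTS-R. The Fkbp5 row is highest in NTS-R and lowest in NS-R and in WTS-R replicate 3, and TS-R replicate 3 is low for Zbtb16 (4.81 CPM), Klf9 (43.2 CPM) and Mt1 (64.2 CPM).

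Zbtb16 varied widely within groups, with SDs of 10.6 to 24.6 CPM around means of 21.4 to 43.0 CPM. It was read at 65.5, 18.4 and 45.2 CPM in NTS-R, 63.1, 42.6, 4.81 and 27.8 CPM in TS-R, 25.5, 9.35 and 29.3 CPM in NS-R, and 18.6, 55.3 and 9.64 CPM in WTS-R. Every group overlapped every other. The largest fitted difference of a pair of groups was 1.02 (SE 0.83) on the log2 scale in NTS-R against NS-R, and 0.45 without the 4 libraries that stood apart. Its interaction of 1.01 (SE 1.12) was -0.02 without WTS-R replicate 2. NTS-R replicate 1 had the highest Fkbp5, Tsc22d3 and Zbtb16 of all libraries.

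Klf9 levels were 136, 131 and 184 CPM in NTS-R, 104, 131, 43.2 and 151 CPM in TS-R, 111, 82.3 and 117 CPM in NS-R, and 122, 119 and 83.6 CPM in WTS-R. NTS-R (151 ± 29.3 CPM) was above NS-R (104 ± 18.7 CPM, SD, n = 3 each) in every library, with a log2 fold change of 0.59 (SE 0.41), against 0.29 without the 4 libraries that stood apart. The other 3 groups had means of 104 to 108 CPM and overlapped. TS-R replicate 3, low in adipocyte markers, was also lowest for Klf9. Without the 4 libraries the Klf9 value in TS-R against WTS-R was 0.14, against -0.27 (SE 0.38) with them. The share of the lymph node and fat content in that shift was not tested.

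Sgk1 (chromosome 10), the member whose window held the full response element, ran the other way from Fkbp5. Its levels were 92.6, 132 and 133 CPM in NTS-R, 52.4, 108, 106 and 160 CPM in TS-R, 138, 195 and 242 CPM in NS-R, and 177, 179 and 163 CPM in WTS-R. All libraries from diabetic donors except TS-R replicate 4 were below all libraries from non-diabetic donors, and that replicate was above NS-R replicate 1 alone. In TS-R (107 ± 43.9 CPM, n = 4) against WTS-R (173 ± 8.93 CPM, n = 3) the log2 fold change was -0.96 (SE 0.36), without overlap on either scale. It was -0.60 without the 4 libraries that stood apart. In NTS-R against NS-R the value was -0.65 (SE 0.38), with no overlap in CPM and overlap on the TMM scale. It ranged from -1.09 without the 4 libraries, where NS-R replicate 3 stands alone, to -0.34 without that replicate, which had the highest Sgk1.

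Errfi1 was tightest in NTS-R, at 83.8, 76.3 and 81.2 CPM. It stood at 36.5, 96.7, 65.5 and 111 CPM in TS-R, 99.1, 131 and 131 CPM in NS-R, and 69.2, 74.2 and 125 CPM in WTS-R. All NTS-R libraries (80.4 ± 3.81 CPM) were below all NS-R libraries (120 ± 18.4 CPM, SD, n = 3 each) on both scales, with a log2 fold change of -0.54 (SE 0.37), and -0.79 without the 4 libraries that stood apart. TS-R against WTS-R overlapped, at -0.45 (SE 0.35), and the value was 0.002 without the 4 libraries that stood apart. TS-R replicate 1, the library rich in skeletal muscle transcripts, had the lowest Sgk1 and Errfi1 of all 13.

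Mt1 was the most abundant member per kilobase. Its levels were 205, 217 and 108 CPM in NTS-R, 293, 143, 64.2 and 180 CPM in TS-R, 150, 376 and 159 CPM in NS-R, and 208, 241 and 263 CPM in WTS-R. The groups overlapped in every comparison. WTS-R had the least spread (237 ± 27.4 CPM), and the log2 fold change was -0.75 (SE 0.45) in TS-R against WTS-R. In NTS-R against NS-R it was -0.32 (SE 0.48), and 0.21 without NS-R replicate 2, which had the highest Mt1.

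Mt2 was counted from 3 to 33 times a library, far fewer than Mt1. It gave 25, 12 and 3 counts in NTS-R, 20, 3, 5 and 6 in TS-R, 6, 23 and 14 in NS-R, and 15, 33 and 15 in WTS-R. In CPM the means were 0.829 ± 0.619, 0.358 ± 0.230, 0.767 ± 0.577 and 1.24 ± 0.543 in that order (SD). TS-R lay below WTS-R in every library on both scales (log2 fold change -2.04, SE 0.73). In GENCODE vM21, 432 of the 588 exon bases of Mt2 (73.5%) overlap Gm45774 on the opposite strand, which the table lists with 6 to 121 counts. The strand setting of the counting is not given in the sources used here, so reads of the 2 genes cannot be told apart and Mt2 levels are uncertain. The other 8 members overlap no exon of another gene there.

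Read side by side, the members shared a direction of the fitted values in 1 comparison and split in the others. In NTS-R against TS-R all 9 fitted log2 fold changes were above 0, with a median of 0.59 against -0.03 for all genes tested, and 8 of 9 were above 0 without the 4 libraries that stood apart. In TS-R against WTS-R 3 members were above and 6 below 0 (median -0.27, all genes 0.03), and 5 were above 0 without those libraries. These comparisons share the TS-R libraries. For NS-R against WTS-R 3 were above and 6 below 0 (median -0.09, all genes 0.01), but without those libraries 6 were above 0 and the median was 0.13. For NTS-R against NS-R 6 were above and 3 below (median 0.17, all genes -0.01), and 6 were above without them. The interaction was above 0 for 7 of 9 (median 0.74, all genes -0.06), and for 6 without them (median 0.41).

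**Figure D3:**
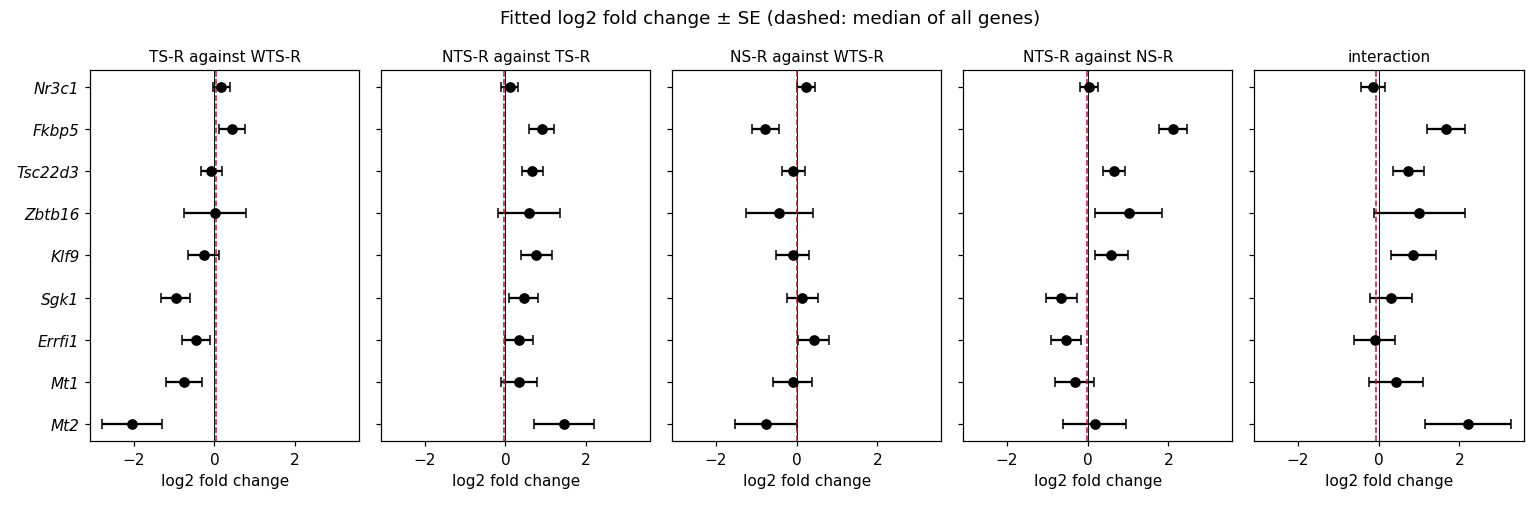
Fitted log2 fold change with its SE for each member in the 4 comparisons and the interaction, with a dashed line at the median of all genes tested. Fkbp5 lies at 2.11 in NTS-R against NS-R, and Mt2 at -2.04 in TS-R against WTS-R has among the widest errors.

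Members whose groups did not overlap were also counted. The choice of members used these contrasts, so the shares of all genes beside the counts are printed as background alone. In TS-R against WTS-R, 2 members were higher and 2 lower without overlap in CPM, where 19.2% of all genes tested were higher and 2.39% lower. With TMM library sizes, 0 members were higher and 2, Sgk1 and Mt2, were lower, beside 8.96% and 8.15% of all genes. In NTS-R against TS-R, 0 members were separated in CPM (1.07% of all genes higher, 16.9% lower), and Fkbp5 and Tsc22d3 were higher on the TMM scale (5.7% higher, 6.83% lower). In NS-R against WTS-R, 0 members were separated on either scale, beside 7.78% higher and 4.02% lower in CPM and 7.95% and 6.4% with TMM. In NTS-R against NS-R, Fkbp5 and Klf9 were higher and Sgk1 and Errfi1 lower in CPM (5.29% and 7.76% of all genes). On the TMM scale Fkbp5, Tsc22d3 and Klf9 were higher and Errfi1 lower (7.03% and 8.2%).

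Several libraries' properties moved with these comparisons. A clock level, the mean log2(CPM + 0.5) of 7 clock genes (Dbp, Tef, Per2, Per3, Nr1d1, Nr1d2 and Ciart) less that of Arntl, Npas2 and Clock, was 1.24 to 4.72 in NTS-R, 1.74 to 3.86 in TS-R, 0.27 to 3.49 in NS-R and -0.72 to 0.93 in WTS-R. TS-R and WTS-R did not overlap in it, and within NS-R it was 0.27, 0.88 and 3.49 in replicates 1, 2 and 3. With that level as a covariate the TS-R against WTS-R value became -1.07 for Klf9 and -1.69 for Sgk1. In NTS-R against NS-R the covariate left Fkbp5 at 2.19 (2.11 before). Klf9 fell there to 0.19 from 0.59, and Sgk1 moved to -1.03 from -0.65. Summed brown adipocyte markers, Ucp1 among them, were 3018 to 3462 CPM in NTS-R, 830 to 3466 in TS-R, 2851 to 3798 in NS-R and 4368 to 6350 in WTS-R. The sum was carried by Ucp1 and Cidea, and every WTS-R library was above the rest in it. Ppargc1a and Dio2 did not follow that order, at 21.1 and 43.5 CPM in WTS-R replicate 3, against 107 and 184 CPM in NTS-R replicate 3, and Elovl3 was under the limit of 3 counts in replicate 2 of NTS-R, TS-R and NS-R. Smooth muscle markers summed to 156 to 202 CPM in NTS-R, 104 to 185 in TS-R, 252 to 596 in NS-R and 116 to 230 in WTS-R, so every NS-R library was above the rest. Macrophage markers summed to 105 to 241 CPM in NTS-R, 271 to 415 in TS-R, 121 to 182 in NS-R and 111 to 314 in WTS-R, so NTS-R and TS-R did not overlap. All 4 smooth muscle and all 5 macrophage markers were detected in each library. The part of these differences in the member values was not tested.

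Across the 13 libraries, members varied in pairs rather than as 1 group. Of 36 pairs, 4 had a Pearson r of log2(CPM + 0.5) above 0.5 and 4 below -0.5, with a median of 0.03. These are descriptions over libraries that share uneven tissue content and depth. Sgk1 and Errfi1 varied together (r 0.77, rho 0.58, 0.73 after removing group means), although r was 0.36 without the 2 libraries farthest out in Sgk1. Zbtb16 and Klf9 had r 0.76 and rho 0.57, with r 0.43 by the same removal, and Mt1 and Mt2 had r 0.74 and rho 0.74, with r 0.64. Fkbp5 ran against Sgk1 (r -0.65, rho -0.81), and after removing group means r was -0.33. Fkbp5 and Tsc22d3 (r 0.51, rho 0.42) had r -0.03 after that removal, so their likeness lay between the groups. Nr3c1, the receptor, ran against Mt1 (r -0.78, rho -0.78) and Mt2 (r -0.87, rho -0.84), and its r with Fkbp5 was 0.22.

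**Figure D4:**
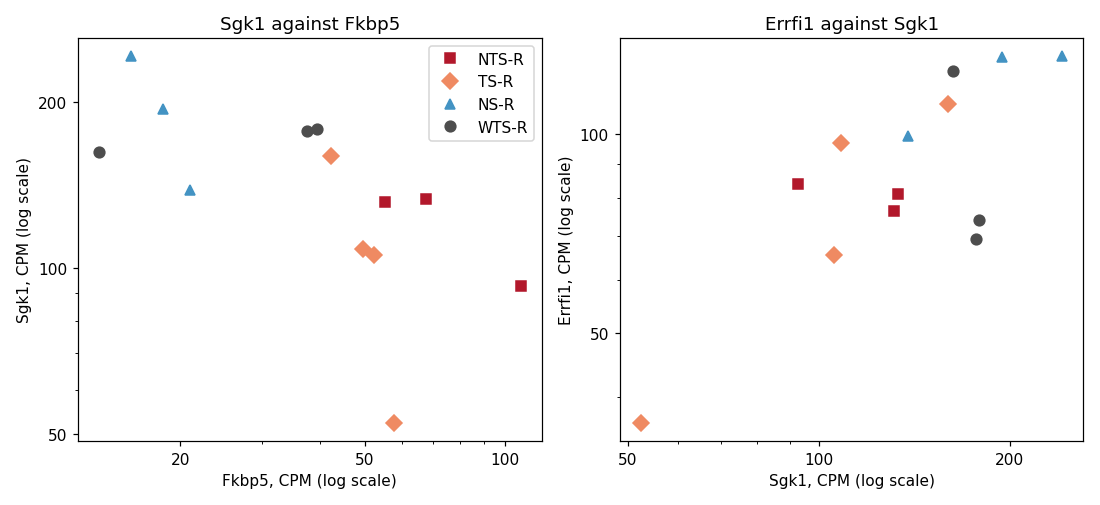
CPM of Sgk1 against Fkbp5 (left) and of Errfi1 against Sgk1 (right) in the 13 libraries, on log axes, with colours for NTS-R, TS-R, NS-R and WTS-R. In the left panel the libraries with high Fkbp5 have low Sgk1 (rho -0.81), and in the right panel TS-R replicate 1 is lowest on both axes.

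Genes with the pattern most like a member, by Pearson r of log2(CPM + 0.5) over 13 libraries among 15297 genes, differed between members. For Fkbp5 they were Gm12276 (0.85), Tcea1-ps1 (0.84), Zfp72 (0.82), Mertk (0.81) and Ccny (0.81). Mertk, a receptor with which macrophages take up dead cells and a listed glucocorticoid target, had 26.4, 17.3 and 29.9 CPM in NTS-R, 16.6, 23.8, 18.1 and 20.6 CPM in TS-R, 17.0, 11.7 and 15.1 CPM in NS-R, and 16.5, 15.3 and 8.07 CPM in WTS-R. Like Fkbp5, its lowest library was WTS-R replicate 3, but TS-R overlapped its neighbours. For Zbtb16 the nearest were Zhx3 (0.91), Mcf2l (0.89), Sptbn5 (0.87), Pdha1 (0.86) and Farp2 (0.86). For Mt1 they were the glutathione transferase genes Gstm5 (0.96), Gstp2 (0.95) and Gstm4 (0.95), with Ndufab1-ps (0.95) and Ndufb3 (0.94).

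Other genes of the pathway were read from lists and tested. These lists too were written with earlier results of these data known. Their p-values and counts are therefore not independent support. By edgeR's quasi-likelihood test, 0 genes of any list, and 0.0% of all 17270 genes in each comparison, passed a Benjamini-Hochberg FDR of 0.05. At an unadjusted p under 0.05, 2622 genes (15.2%) were higher and 1221 (7.07%) lower in TS-R against WTS-R, and DESeq2 called 1566 (9.07%) and 340 (1.97%). Leaving out TS-R replicate 1 gave 1906 edgeR calls there, and leaving out TS-R replicate 4 gave 1238. In NTS-R against TS-R the unadjusted counts were 965 higher (5.59%) and 2427 lower (14.1%), and DESeq2 called 196 (1.13%) and 1233 (7.14%). There edgeR called 1018 genes without TS-R replicate 1 and 880 without TS-R replicate 4.

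Of 36 other glucocorticoid receptor targets, 35 were tested, Il1r2 being too low. In TS-R against WTS-R 3 were higher and 3 lower by an unadjusted p under 0.05, with a list median of -0.23. Without the 4 libraries that stood apart the list median was -0.03, against -0.01 for all genes. DESeq2 called Foxo3 higher (adjusted p = 0.000989) and Cebpb lower (adjusted p = 0.0146). Foxo3, a transcription factor of starvation and stress responses, had 36.3, 31.9, 41.2 and 30.9 CPM in TS-R, against 19.7, 18.8 and 20.7 CPM in WTS-R, without overlap (edgeR log2 fold change 0.55, SE 0.14, FDR 0.062). Cebpb, a factor of adipocyte differentiation and the acute phase, had 67.0, 71.4, 35.2 and 156 CPM in TS-R, against 176, 215 and 159 CPM in WTS-R (-1.40, SE 0.41, FDR 0.079). Every TS-R library was below every WTS-R one for Cebpb, replicate 4 only just. Without the 4 libraries the log2 fold change was 0.44 for Foxo3 and -0.92 for Cebpb.

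The same list stood mostly above 0 in NTS-R against TS-R, where 26 of 35 fitted values were positive and the median was 0.39, against -0.03 for all genes. Of these, 3 were higher and 2 lower by an unadjusted p under 0.05, and DESeq2 called 1, Fam107a (adjusted p = 0.0348). Without the 4 libraries the list median was 0.27, against 0.05 for all genes. Fam107a, a stress-induced actin-binding gene, had 7.30, 6.21 and 7.53 CPM in NTS-R and 2.65, 5.01, 1.94 and 3.73 CPM in TS-R, without overlap. Its edgeR log2 fold change was 1.36 (SE 0.43, FDR 0.13), and 0.95 without the 4 libraries. Foxo3 was lower in NTS-R (22.0 ± 4.03 CPM, n = 3) than in TS-R (35.1 ± 4.70 CPM, n = 4), with an edgeR log2 fold change of -0.38 (SE 0.14) and FDR 0.15. Its interaction was -0.75 (SE 0.20, edgeR FDR 0.15, DESeq2 adjusted p = 0.00825). Over all genes, DESeq2 called 95 interactions above 0 (0.55%) and 991 below (5.74%). These comparisons share TS-R libraries.

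Between the knockout donor groups the targets split. In NTS-R against NS-R 3 were higher (Hif3a, Mertk, Slc10a6) and 3 lower (Dusp1, Anxa1, Cyp7b1) at an unadjusted p under 0.05, and DESeq2 called 0. Without the 4 libraries, which leaves 1 NS-R library, the list median was 0.21, against 0.04 for all genes, and counts are not given. Over all genes in this comparison 216 were higher (1.25%) and 883 lower (5.11%) at that p, and DESeq2 called 4 higher (0.0232%) and 204 lower (1.18%). EdgeR called 563 genes there without NS-R replicate 3. Dusp1, an immediate early phosphatase that switches off stress kinases, had 107, 100 and 117 CPM in NTS-R and 222, 383 and 196 CPM in NS-R (log2 fold change -1.23, SE 0.40, edgeR FDR 0.42). Dusp1 was lower in every NTS-R library, as Sgk1 and Errfi1 were in CPM, and its log2 fold change was -0.93 without the 4 libraries. Anxa1 was -0.78 with all libraries and 0.21 without the 4 that stood apart. In NS-R against WTS-R 3 targets, Cyp7b1, Dusp1 and Foxo3, were higher and 0 lower at that p, beside 850 genes higher (4.92%) and 67 lower (0.388%). DESeq2 called 190 genes higher (1.1%) and 0 lower (0.0%), none of them a listed target, and edgeR called 503 without NS-R replicate 3.

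**Figure D5:**
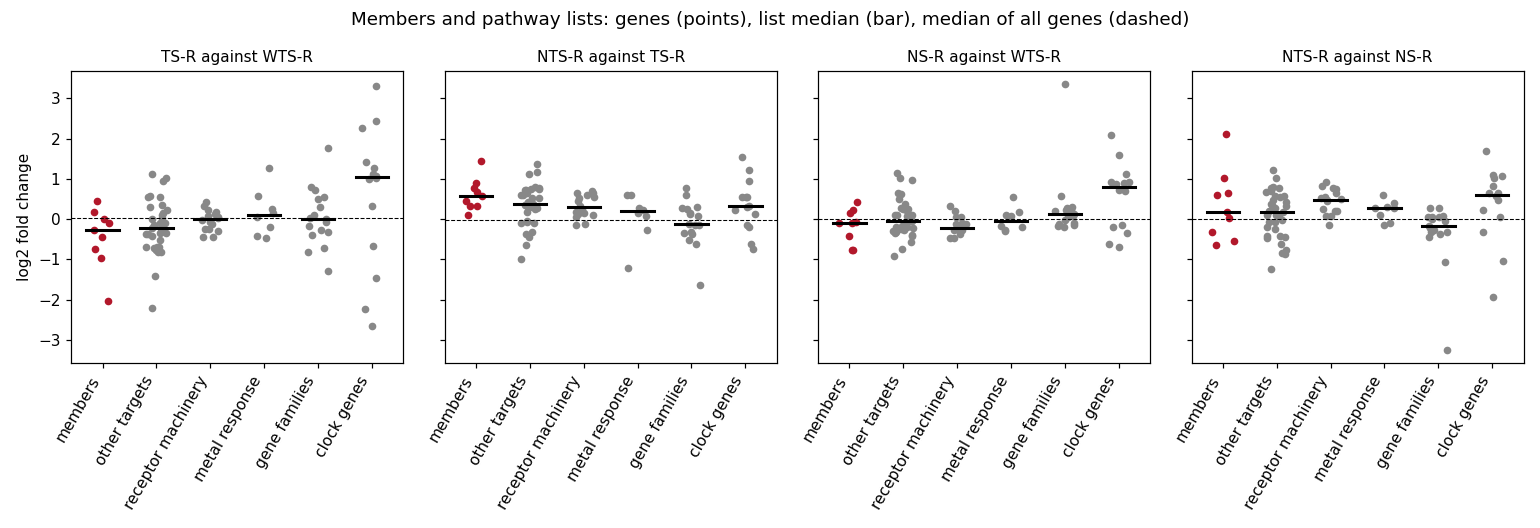
Fitted log2 fold changes of the 9 members and of the genes of 5 lists in 4 comparisons; each point is a gene and each bar the median of its list. The receptor machinery median is 0.48 in NTS-R against NS-R, and Klf5 is the high point of the families list in NS-R against WTS-R at 3.35.

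The list of receptor machinery and steroid handling (chaperones, co-regulators and steroid enzymes) had 16 of 18 genes tested, Hsd11b2 and Serpina6 being too low. In NTS-R against NS-R 15 of 16 values were above 0 (median 0.48), and 4 were higher at an unadjusted p under 0.05, with 0 DESeq2 calls. Without the 4 libraries, which leaves 1 NS-R library, the median was 0.42, against 0.04 for all genes, and counts are not given. Nrip1, a co-repressor of nuclear receptors, had 42.0, 31.1 and 52.1 CPM in NTS-R and 24.4, 23.3 and 26.2 CPM in NS-R (log2 fold change 0.81, SE 0.25, edgeR FDR 0.35). Its log2 fold change was 0.60 without the 4 libraries. Stip1 and Ptges3, co-chaperones of HSP90, were 0.78 (SE 0.30, FDR 0.62) and 0.54 (SE 0.24, FDR 0.75) by edgeR, also without overlap. In NTS-R against TS-R 14 of 16 were above 0 (median 0.30), 3 of them higher at that p, and the median was 0.40 without the 4 libraries. Against WTS-R, 0 passed that p in TS-R or in NS-R, and without the 4 libraries the medians were 0.02 in TS-R and -0.14 in NS-R. Hsd11b1, the enzyme that regenerates active hormone within fat, was picked after its values were seen. It had 89.7, 103 and 67.1 CPM in NTS-R, 39.6, 110, 35.6 and 71.1 CPM in TS-R, 39.7, 86.6 and 60.1 CPM in NS-R, and 63.4, 58.7 and 52.6 CPM in WTS-R. All NTS-R libraries were above WTS-R, and TS-R held both the lowest and the highest of the 13 values.

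In the metal response list, 8 of 10 genes were tested, Mt4 and Slc30a10 being too low. Gclm, a subunit of the enzyme that starts glutathione synthesis, had 27.5, 27.7 and 31.6 CPM in NTS-R and 21.4, 24.3, 22.9 and 25.5 CPM in TS-R. It was higher in every NTS-R library (edgeR log2 fold change 0.60, SE 0.16, FDR 0.11; DESeq2 adjusted p = 0.0119). The families of the members gave 17 genes. In TS-R against WTS-R DESeq2 called Klf13 (adjusted p = 0.0102) and Zbtb32 (adjusted p = 0.00801) higher. Their edgeR log2 fold changes were 0.79 (FDR 0.069) and 1.77 (FDR 0.073). The corresponding values without the 4 libraries were 0.50 and 1.15. The TS-R libraries left in those values are the lymphoid-rich replicates 2 and 4. Klf5 was higher in NS-R against WTS-R by DESeq2 (adjusted p = 0.00158), with an edgeR log2 fold change of 3.35 and FDR 0.20. The groups overlapped, at 8.025, 10.9 and 0.709 CPM in NS-R, against 0.781, 0.565 and 0.441 CPM in WTS-R. The fold change was 0.35 without the 4 libraries, which include both rich in airway markers.

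The clock list showed the most calls in TS-R against WTS-R, with 4 genes higher and 2 lower of 14 by DESeq2. Over all genes tested, DESeq2 called 9.07% higher and 1.97% lower there. EdgeR called 0 of the 14 at an FDR of 0.05. Dbp, an output gene of the clock, averaged 71.2 ± 32.8 CPM in TS-R (n = 4), against 5.98 ± 3.93 CPM in WTS-R (n = 3, SD). For Dbp the DESeq2 adjusted p was 2.5e-05 and the edgeR FDR 0.062. Nfil3, which opposes DBP at shared sites, averaged 10.6 ± 4.06 CPM in TS-R, against 40.8 ± 2.82 CPM in WTS-R (DESeq2 adjusted p = 0.000132, edgeR FDR 0.062). Without the 4 libraries that stood apart the edgeR log2 fold change in this comparison was 3.51 for Dbp and -2.55 for Nfil3, against 3.30 and -2.23 with them. The labels give no time of collection, so time of day and donor group cannot be told apart.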

How the data were processed

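Perivascular fat RNA was sequenced as paired-end mRNA libraries. The authors' deposited table holds whole-number counts per gene in 13 libraries, made with HISAT2 and featureCounts per the submitters' processing notes; their versions, the build, annotation and strand are, for these counts, not given in the sources used here. Groups were taken from sample titles. Of 34013 identifiers, 33302 were matched to symbols. CPM was computed from column totals. All libraries entered a single edgeR 4.0.16 quasi-likelihood fit in R 4.3.3 (filterByExpr, TMM, Benjamini-Hochberg FDR 0.05); DESeq2 1.42.0 was an alternative, beside RLE factors, no filter, the compared groups alone, a clock covariate, a replicate block and libraries left out. The fit was tested on data simulated with large changes and less spread than these libraries show, so its power here was not tested. Replicates of each group differed beyond sampling noise (lowest chi-square per degree of freedom 31.8). The floor of 3 counts covers counting error only.

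The members and lists were chosen with earlier results of these data known. All members were named; other genes were named by the smallest unadjusted p under 0.05 with a mean of 1 CPM or more, up to 3 per direction, list and comparison, and only some are printed. The 5 nearest genes to Fkbp5, Zbtb16 and Mt1 were named.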

Additional observations from a re-analysis of the deposited data

Results flagged for a closer look

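Nr3c1 in TS-R was picked out because its highest library lay far from the others. Replicate 3 stood at 114 CPM, against 85.8, 88.8 and 89.6 CPM in replicates 1, 2 and 4. In CPM the gap took up more of the range than the 95% critical value of Dixon's test for 4 samples (0.829). This is 1 of 9 groups examined. Chance flags about 1 in 20 for each group, so at least 1 flag among 9 is likelier than that. Replicate 3 had the highest TMM factor, 1.21. On the TMM scale Nr3c1 in TS-R ran from 72.7 to 94.0 (SD 8.96), and the flag was not examined there. The same library had the lowest summed adipocyte markers (4057 CPM) and the highest lymph node stroma markers (1601 CPM), and Xist at 805 CPM; their part in the Nr3c1 value was not tested. Without it the Nr3c1 log2 fold change in TS-R against WTS-R was 0.08, against 0.17 with it.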

How the results depend on the processing

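The count of genes past an edgeR FDR of 0.05, 0 in each comparison, depended on the setting. DESeq2 gave 1906 in TS-R against WTS-R, 1429 in NTS-R against TS-R, 190 in NS-R against WTS-R, 208 in NTS-R against NS-R and 1086 for the interaction. Without a filter on low counts the numbers were 889, 404, 138, 126 and 92 in that order, and without the 4 libraries that stood apart, a choice made after seeing the data, 942, 390, 41, 10 and 162. The clock covariate gave 596 in TS-R against WTS-R, 16 in NS-R against WTS-R and 92 for the interaction. The fit of NTS-R and NS-R alone gave 5. RLE factors gave 0 throughout. Leaving out 1 library gave 0 to 1906 genes in TS-R against WTS-R, 0 to 1018 in NTS-R against TS-R, 0 to 503 in NS-R against WTS-R, 0 to 563 in NTS-R against NS-R and 0 to 517 for the interaction. The last had 517 without TS-R replicate 1, 298 without NS-R replicate 3, 71 without TS-R replicate 4 and 5 without TS-R replicate 3. NTS-R against NS-R also had 1 without either WTS-R replicate 3 or TS-R replicate 3. The cause was not tested.

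Deviations from group means correlated between same-numbered libraries at r -0.258 to 0.268 (18 pairs, 6 over 0.1). These values also carry uneven tissue content, so they cannot decide whether same-numbered libraries shared a batch or day. The replicate block gave 784 genes in TS-R against WTS-R, 76 in NTS-R against TS-R, 0 in NS-R against WTS-R, 0 in NTS-R against NS-R and 19 for the interaction.

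Of 891 recomputed member fold changes, 867 moved by less than the spread within groups and 24 by more; 44 changed sign, the largest being the Zbtb16 interaction. TMM library sizes moved 33 of 36 member means by less than 1 SD. The pseudocount of 0.1 moved r by at most 0.024. Without the filter the median of all genes was 0.10 in TS-R against WTS-R, -0.11 in NTS-R against TS-R and -0.36 for the interaction, so fold changes there are relative to these shifts. Mt2, at 3 to 33 counts, was the member nearest the limit of counting, and why its counts were low was not tested.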
